A study of Pimephales promelas with 10 samples.

Results

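The transcripts described here were detected by their array probe in only some of the Control testis explants of the fathead minnow, Pimephales promelas. Control explants were cultured without progesterone. The transcripts were chosen by their Control values. A probe qualified if its signal was well above background on 2, 3 or 4 of the 6 Control arrays, and the 200 qualifying probes with the largest difference between their highest and lowest Control value were taken. They are 200 of 1272 qualifying probes (15.7%) and of 15208 probes in all (1.32%). Of the 200, 60 were detected on 2 Control arrays, 62 on 3 and 78 on 4. The other 1072 qualifying probes had smaller ranges, and the rest of the array's probes were detected on all 6 Control arrays (11950), on 5 (812), on 1 (501) or on none (673).

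Pieces of male testis were cultured for 12 h, with progesterone at 1e-06 M in the P4 group and without it in the Control group. The P4 samples carry the numbers 4, 5, 7 and 8, and the Control samples carry 2, 4, 5, 7, 8 and 10. Total RNA of each sample was used for a one-colour Agilent array of its own, with the dye Cy3 as label. Strain, age and vehicle are not given in the labels used here, which also do not say whether samples came from separate fish or what the numbers stand for, so the p-values cover the spread among these arrays, part of which may be technical.

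The fish testis holds germ cells at successive stages of spermatogenesis within cysts of Sertoli cells, and steroid-producing Leydig cells, blood vessels and connective tissue between them. A piece of testis therefore mixes many cell types, and the mix can differ from piece to piece. Progesterone is a steroid from which the testis makes androgens and the progestins that act in fish sperm maturation. In RNA from such pieces, fewer cells of a type and less RNA per cell cannot be told apart. The files name each probe by a sequence record or an assembly contig and not by a gene, and 0 of the 200 matched the gene table available, so no cell type marker could be looked up and the transcripts are given by probe name without a role.

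Values below are log2 of the processed signal minus the 75th percentile of its array, so 0 is the level of a bright transcript and each unit is a doubling. "On" means that the scanner software called the spot well above background. Arrays differed in how much they detected: between 88.8% and 95.2% of all probes were on across the P4 arrays, and between 82.6% and 92.1% across the Control arrays. The 75th percentile signal was 1882 to 3350 intensity units on P4 arrays and 1382 to 3927 on Control arrays. No member spot was saturated, 2 of 2000 carried a non-uniformity flag and 0 were population outliers.

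The range over the 6 Control arrays, which chose the members, ran from 4.12 to 9.62 log2 units with a median of 5.10, against a median of 2.65 for all qualifying probes and 1.59 for all probes. At the threshold, UF_Ppr_AF_103360 and UF_Ppr_AF_110099 were the last taken in, both at 4.12. UF_Ppr_AF_104784 at 4.12 and UF_Ppr_AF_101422 at 4.10 were the first left out. The lowest Control value was a floor value, set by the software for a spot not significantly above background, in 110 of the 200 members, so a range is then a lower bound. Of the 1200 Control values of the members, 181 were floor values.

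The P4 arrays had no part in the choice, and the members varied there too. Their range over the 4 P4 arrays had a median of 2.49 and ran from 0.26 to 12.7, against medians of 1.15 for all qualifying probes and 0.83 for all probes.

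**Figure D1:**
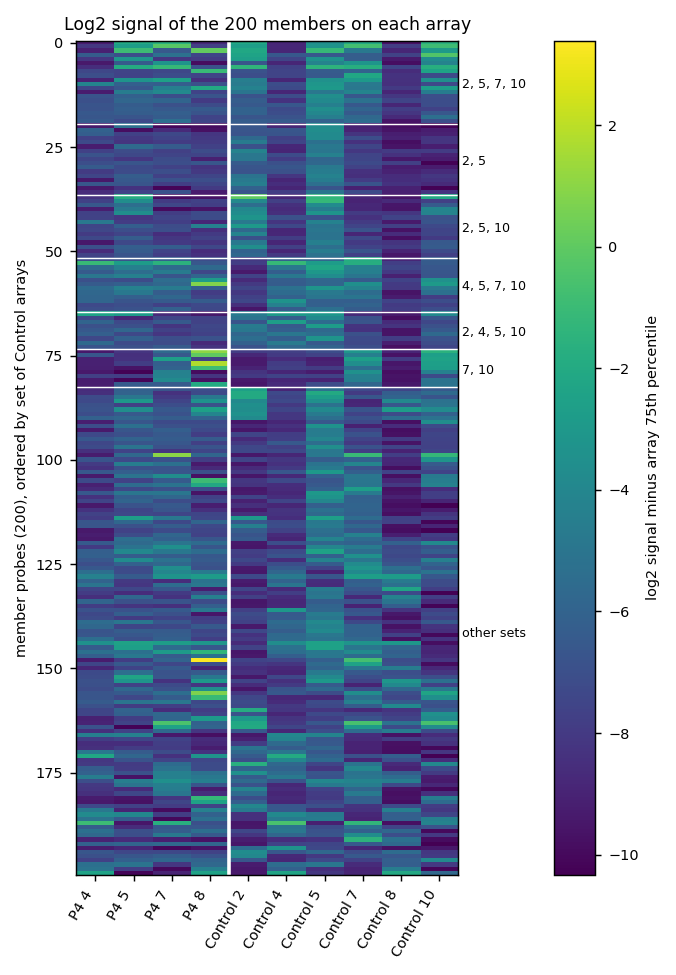
Log2 signal relative to the array's 75th percentile for the 200 members (rows) on the 4 P4 arrays (left) and the 6 Control arrays (right), ordered by the set of Control arrays on which they were on. Members differ in which arrays are bright, and Control 5 has the brightest column, with a median member value of -5.19.

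The arrays differed in how many of these transcripts were on. On the P4 arrays numbered 4, 5, 7 and 8, 89, 166, 158 and 122 of the 200 were on. On the Control arrays numbered 2, 4, 5, 7, 8 and 10, the counts were 101, 60, 155, 110, 63 and 129. Of the Control arrays, Control 5 stood highest and Controls 4 and 8 lowest, and P4 5 and P4 7 stood above every Control array. The choice allowed a member at most 4 of the 6 Control arrays and set no such limit on the P4 arrays. The counts of the 2 groups are therefore not compared. Over all probes, P4 5 (95.2%) and P4 7 (93.9%) also stood above the highest Control array, Control 5 (92.1%). The lowest signal called on differed too. It was 14.6, 18.6, 10.3, 19.3, 21.3 and 13.3 units on Control arrays 2, 4, 5, 7, 8 and 10. The part of this in the counts was not tested.

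The highest Control value belonged to Control 5 in 79 members, to Control 2 in 30, to Control 7 in 29, to Control 10 in 27, to Control 4 in 22 and to Control 8 in 13. The lowest belonged to Control 8 in 88 members and to Control 5 in 2. The median member value was -5.19 on Control 5 and -8.16 on Control 8. Control 5 had the lowest and Control 8 the highest 75th percentile signal of the Control arrays, 1382 and 3927 units, and the part of this in the order of the arrays was not tested. It is not one order for all members, since each Control array was the highest for at least 13 of them.

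**Figure D2:**
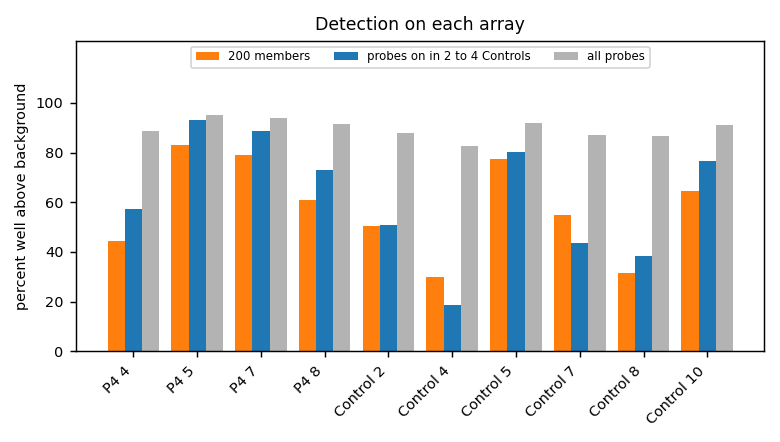
Percent of probes well above background on each array, P4 arrays left of Control arrays, for the members, all qualifying probes and all probes. Members range from 44.5% to 83% on P4 arrays and from 30% to 77.5% on Control arrays, while all probes stay between 82.6% and 95.2%. The choice of members and of qualifying probes capped their detection on Control arrays and not on P4 arrays.

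Transcripts that were on together can be read from the set of Control arrays on which each was detected. The 200 members fell into 42 of the 50 possible sets, and 7 sets held 1 member. The 6 most frequent sets held 83 members (41.5%), against 31.2% of all qualifying probes in the same sets. These sets were picked by their member counts, which raises the members' share, so nothing is read from the contrast. Among all qualifying probes the commonest set was Controls 5 and 10, with 129 (10.1%). The commonest set was Controls 2, 5, 7 and 10 with 20 members, followed by Controls 2 and 5 with 17 and Controls 2, 5 and 10 with 15. Controls 4, 5, 7 and 10 held 13 members, Controls 2, 4, 5 and 10 held 9, and Controls 7 and 10 held 9. Control 8 was in none of these 6 sets.

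By pairs of arrays, Controls 5 and 10 shared the most members, 97, and Controls 2 and 4 the fewest, 18. Controls 2 and 5 shared 82, which is 81.2% of the members on in Control 2 and 52.9% of those on in Control 5. Of all members, 77.5% were on in Control 5 and 50.5% in Control 2, so both shares lay close to those of all members. For the pair with the most shared members, 75.2% of those on in Control 10 were on in Control 5, slightly below 77.5%. Control 5 had the most members on, and nothing beyond that count is read from its large overlaps.

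In the set of Controls 2, 5, 7 and 10, the 2 members of largest range had like patterns. UF_Ppr_AF_110304 had values of -9.29, -2.04, -1.64 and -8.73 in P4 samples 4, 5, 7 and 8, and of -2.10, -8.87, -3.62, -2.03, -9.72 and -1.64 in Control samples 2, 4, 5, 7, 8 and 10. UF_Ppr_AF_103527 had -8.09, -2.70, -0.15 and -7.71 in P4 samples and -2.64, -8.80, -3.28, -0.74, -7.89 and -0.88 in Control samples, in the same order. Both were bright in P4 5 and P4 7 and in Controls 2, 5, 7 and 10, and were at the bottom of the scale in P4 4, P4 8 and Controls 4 and 8. The numbers 4, 5, 7 and 8 thus gave the same state in both groups, and the groups overlapped over most of their range.

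In the set of Controls 2, 5 and 10, UF_Ppr_AF_100887 had the widest Control range of all members. Its values were -8.33, -1.84, -9.87 and -9.66 in P4 samples 4, 5, 7 and 8, against -0.020, -8.84, -1.28, -8.93, -9.63 and -2.03 in Control samples 2, 4, 5, 7, 8 and 10. Its unscaled signal was 5.8, 869, 3.6 and 3.9 units in P4 samples and 2104, 4.0, 570, 4.4, 4.9 and 854 units in Control samples. The signal was thus either 570 units or more or 5.8 units or less, with nothing between, and number 5 was bright in both groups. The second member of that set, UF_Ppr_AF_106174, had -7.67, -3.61, -7.96 and -7.68 in P4 samples and -3.89, -7.71, -1.21, -8.96, -8.71 and -7.72 in Control samples. It was bright in P4 5 and in Controls 2 and 5, and only just detected in Control 10. Another probe to its record, UF_Ppr_AM_119787, was on in none of the 10 arrays, with a Control range of 1.43.

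In the set of Controls 2 and 5, UF_Ppr_AF_109596 had -9.38, -5.27, -10.12 and -9.88 in P4 samples 4, 5, 7 and 8, against -6.65, -8.84, -3.68, -9.08, -9.78 and -10.27 in Control samples 2, 4, 5, 7, 8 and 10. It was on in 1 P4 sample, number 5. UF_Ppr_AF_118499 of the same set had -6.04, -9.84, -8.69 and -9.70 in P4 samples and -6.72, -6.66, -3.60, -8.94, -9.60 and -9.22 in Control samples. Here number 5 had opposite states in the groups, bright in Control 5 and dim in P4 5, and the brightest P4 sample was number 4.

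In the set of Controls 4, 5, 7 and 10, UF_Ppr_AF_117890 had -1.08, -2.74, -1.52 and -6.60 in P4 samples 4, 5, 7 and 8, against -7.80, -1.12, -2.76, -1.78, -7.76 and -6.37 in Control samples 2, 4, 5, 7, 8 and 10. Numbers 4, 5 and 7 were bright and number 8 was dim in both groups. UF_Ppr_AF_111800 had -7.08, -6.74, -6.06 and -7.11 in P4 samples and -8.04, -6.06, -5.76, -1.92, -8.87 and -6.35 in Control samples. It was bright in Control 7 alone and at -5.76 or lower elsewhere, P4 7 included.

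In the set of Controls 2, 4, 5 and 10, UF_Ppr_AF_106187 had -2.37, -2.88, -8.68 and -9.43 in P4 samples 4, 5, 7 and 8, against -4.66, -2.83, -3.11, -8.72, -9.35 and -3.89 in Control samples 2, 4, 5, 7, 8 and 10. Numbers 4 and 5 were bright and numbers 7 and 8 dim in both groups, with no value between -8.68 and -4.66. UF_Ppr_AF_118911 had -7.43, -8.90, -7.47 and -7.63 in P4 samples and -5.13, -6.27, -3.84, -6.95, -9.83 and -6.65 in Control samples. Its values formed no separate bright and dim states, and P4 5 was its lowest P4 value although Control 5 was its highest Control value.

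In the set of Controls 7 and 10, UF_Ppr_AF_110165 had -9.43, -8.20, -5.58 and 1.07 in P4 samples 4, 5, 7 and 8, against -7.85, -7.73, -7.11, -3.12, -8.89 and -1.58 in Control samples 2, 4, 5, 7, 8 and 10. UF_Ppr_AF_115045 of the same set had -6.65, -8.44, -6.49 and 0.028 in P4 samples and -8.79, -8.00, -7.62, -4.39, -9.68 and -2.60 in Control samples. P4 8 was the brightest of all 10 samples for both, and Control 8 the dimmest Control.

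**Figure D3:**
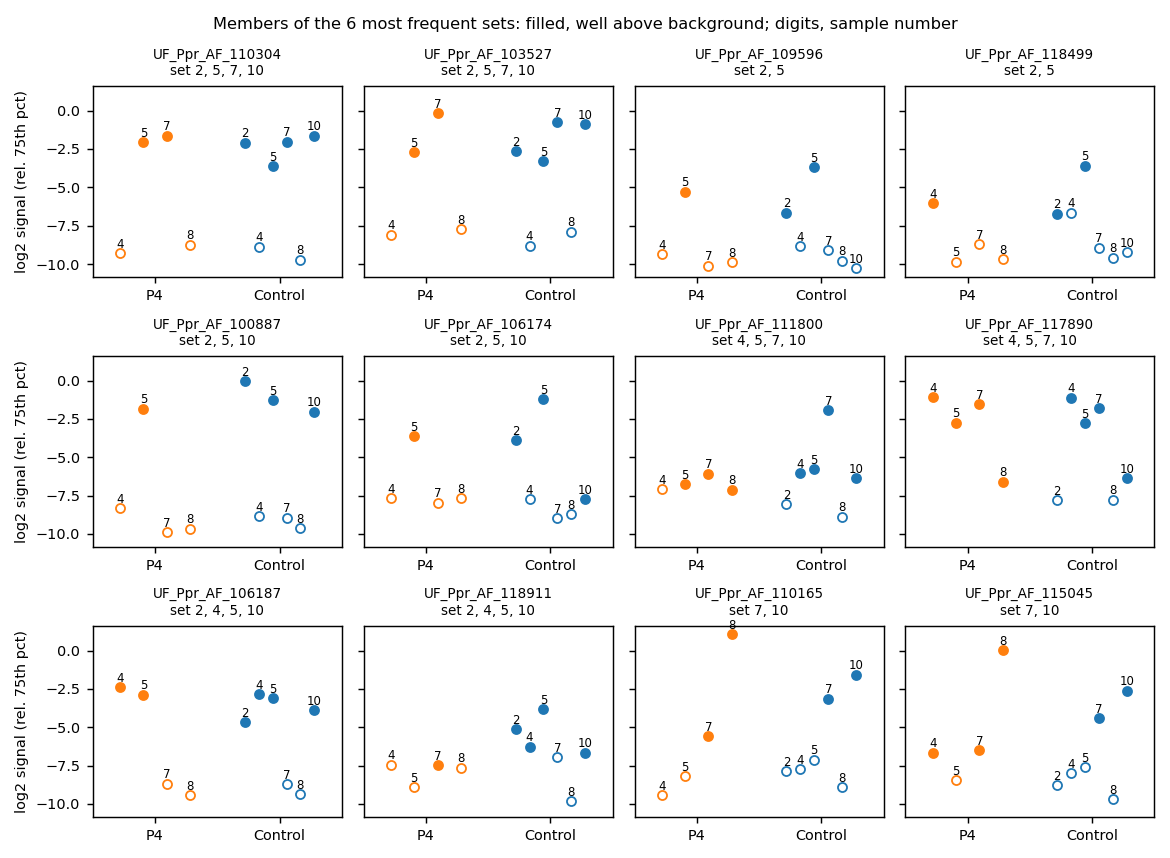
Log2 signal relative to the array's 75th percentile in each P4 sample (left, orange) and Control sample (right, blue) for the 2 members of largest Control range in each of the 6 commonest sets, one panel each, with sample numbers beside the points and filled points for spots well above background. UF_Ppr_AF_100887 lies at -1.84 in P4 5 and at -0.020, -1.28 and -2.03 in Controls 2, 5 and 10, and at -8.33 or lower in the other samples.

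Some members followed one another over all 10 samples. Of the 19900 pairs of members, 43 (0.216%) had a Pearson correlation of at least 0.95 over the 10 arrays, against 0.0358% of pairs of qualifying probes, with 37 members involved. The members were chosen for large ranges and the arrays are shared by every pair, so these values describe the likeness and are not a test. Linking such pairs gave 6 groups of 3 or more members.

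The largest group had 7 members, among them UF_Ppr_AF_110165 and UF_Ppr_AF_115045. Its median value was -7.27, -7.86, -5.96 and 0.74 in P4 samples 4, 5, 7 and 8, against -8.15, -7.73, -7.14, -3.62, -8.89 and -2.60 in Control samples 2, 4, 5, 7, 8 and 10. The group was brightest in P4 8, at intermediate levels in Controls 7 and 10, and at -5.96 or lower in the other 7 samples. UF_Ppr_AF_105424, UF_Ppr_AF_114145 and UF_Ppr_AF_100048 formed a smaller group that was also brightest in P4 8, at -1.06, -1.21 and -2.43.

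A second group of 5 members, with UF_Ppr_AF_110304 and UF_Ppr_AF_103527, had medians of -9.02, -2.70, -1.64 and -7.71 in P4 samples 4, 5, 7 and 8, against -2.64, -8.87, -3.40, -2.03, -8.40 and -1.73 in Control samples 2, 4, 5, 7, 8 and 10. It was bright in numbers 5 and 7 and dim in numbers 4 and 8, whichever the group. Another group of 4, with UF_Ppr_AF_100887, had medians of -8.25, -3.38, -9.01 and -8.77 in P4 samples and -3.12, -8.56, -3.27, -8.39, -9.45 and -3.89 in Control samples. Of the numbers in both groups, 5 alone was bright in it.

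The other groups had 3 members each. UF_Ppr_AF_106174, UF_Ppr_AF_109596 and UF_Ppr_AF_116232, all named by sequence records, were brightest in number 5 within each group. UF_Ppr_AF_105757, UF_Ppr_AF_108660 and UF_Ppr_AF_112466 were bright in P4 7, at -2.61, -4.32 and -3.79. In Control 7 they stood at -2.62, -3.40 and -4.42 and in Control 10 at -2.41, -4.33 and -5.10, and on the other 7 arrays they lay at -7.76 or lower.

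Detection in the P4 samples was the measure that the choice of members did not use. Of the 200 members, 195 (97.5%) were on in at least 1 P4 array. This share was near the 96.5% of all probes and the 98.7% of qualifying probes. All 4 P4 arrays detected 48 members (24%), against 87.3% of all probes and 45.4% of qualifying probes. Another 73 members (36.5%) were on in 3 P4 arrays, 50 (25%) in 2 and 24 (12%) in 1. The same shares were 3.85%, 3.13% and 2.21% of all probes and 29.6%, 18.1% and 5.58% of qualifying probes. No P4 array detected 5 members (2.5%), against 3.47% of all probes and 1.34% of qualifying probes. Partial detection thus extended to the P4 samples: 147 members were on in 1, 2 or 3 of the 4 arrays.

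Among the members on in none of the P4 arrays, UF_Ppr_AF_107125 had the largest Control range. Its values were -9.03, -8.64, -9.20 and -9.64 in P4 samples 4, 5, 7 and 8, against -9.24, -8.53, -8.32, -1.47, -5.23 and -9.88 in Control samples 2, 4, 5, 7, 8 and 10. It was bright in Controls 7 and 8 and not in the P4 samples of those numbers. Since no P4 spot was well above background and 4 of the 6 Control spots were not, no fold is given. Another probe to the same record, UF_Ppr_AM_119343, was on in all 10 arrays, with a Control range of 1.43. The next member by range, UF_Ppr_AM_119729, was on in Controls 2 and 4. Another probe to its record, UF_Ppr_AF_107495, was also on in all 10 arrays, with a Control range of 1.30. The other 3 members on in no P4 array, UF_Ppr_AF_110218, UF_Ppr_AF_106824 and UF_Ppr_AF_115628, were each on in 2 Controls.

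Among the members on in all P4 arrays, UF_Ppr_AF_112044 had -3.41, -2.41, -2.69 and -3.13 in P4 samples 4, 5, 7 and 8, against -8.70, -3.60, -2.51, -3.21, -3.05 and -9.82 in Control samples 2, 4, 5, 7, 8 and 10. The P4 samples lay close to the 4 bright Controls of the same numbers, and the dim Controls, 2 and 10, were those without a P4 sample of their number. UF_Ppr_AF_109873 had -6.34, -7.03, -5.21 and -7.48 in P4 samples and -2.37, -6.58, -6.55, -6.27, -7.61 and -0.33 in Control samples. Here Controls 2 and 10 were the bright ones instead, and the numbers found in both groups lay within -7.61 and -5.21.

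The state of a transcript was therefore compared between samples of the same number. The calls on and not on matched for 72.5%, 83.5%, 71% and 62.5% of the members between P4 and Control samples of number 4, 5, 7 and 8. The mean was 72.4%, against 49.4% over the 12 pairs of P4 and Control samples with different numbers from these 4, which ranged from 35.5% to 66.5%. The difference was 23.0 percentage points with an SD of 13.6 over the 4 numbers. Over all qualifying probes the means were 61.2% and 47.6%, a difference of 13.6 points. Members and qualifying probes were chosen to be on in some Control arrays and not in others. The Controls of a probe therefore differ by construction, which lowers the match between different numbers, so these contrasts are not a test. P4 8 matched Control 7 at 63.0%, slightly above its own number.

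That matching is affected by how many members an array had on, so shares within each P4 array are also given. In P4 4, 78.3% of the members on in Control 4 were on, against 30.0% of those not on in Control 4. The same shares were 92.9% and 48.9% in P4 5 by Control 5, 95.5% and 58.9% in P4 7 by Control 7, and 87.3% and 48.9% in P4 8 by Control 8. These differences ran from 36.6 to 48.3 percentage points, and those over the 12 pairs of different number from -13.0 to 24.0 points. The choice of members by their Control calls lowers the differences for other numbers too, so this contrast is not a test. That same-numbered samples of this study resemble each other was already known from all probes when the members were chosen, so the match is not independent support for it.

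**Figure D4:**
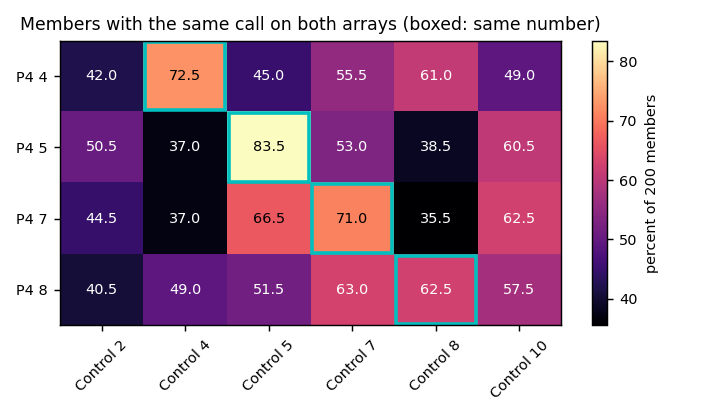
Percent of the 200 members with the same detection call in each P4 sample (rows) and each Control sample (columns), by colour and number, with pairs of one number boxed. The Control of the same number gives 72.5%, 83.5%, 71% and 62.5% for numbers 4, 5, 7 and 8, the highest of its row except for P4 8, where Control 7 gives 63.0%.

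Numbers 7 and 8 shared a slide between their P4 and Control arrays, and numbers 4 and 5 did not. The same-number match averaged 66.8% for the pairs on one slide and 78.0% for the pairs on different slides. Between different numbers it averaged 47.0% for the 2 pairs on one slide and 49.9% for the 10 pairs on different slides. These are 2 same-number pairs of each kind, and the part of the slide in the match was not tested.

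Not all members had clear bright and dim states. The gap between the lowest Control value called on and the highest not called on had a median of 1.19 and a maximum of 6.81, and it was below 0 in 35 members. A gap over 2 log2 units was found in 59 members (29.5%). For these, each P4 value was placed on the bright or the dim side of the middle of the gap. Of the 236 P4 values, 200 (84.7%) fell on the side of the Control of their number, against 354 of 708 for the Controls of the 3 other shared numbers. The 59 members and the middle of each gap were taken from the Control values. The Controls of a member therefore differ by construction, which lowers the share for other numbers, so the contrast is not a test. By number, the count was 57, 44, 53 and 46 of 59 for numbers 4, 5, 7 and 8, and 34 of the 59 members had all 4 numbers on the same side.

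The levels were compared as well as the states. In the 59 members, the median absolute difference between P4 and Control samples of the same number was 0.48, 0.96, 0.81 and 0.86 log2 units for numbers 4, 5, 7 and 8. Between different numbers it was 2.02, 2.01, 2.42 and 2.50 for the same P4 samples. The members were chosen for wide Control ranges and gaps, which widens the differences between numbers, so this contrast is not a test. Over all probes, most of which vary little, the same-number medians were 0.33, 0.54, 0.41 and 0.27.

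**Figure D5:**
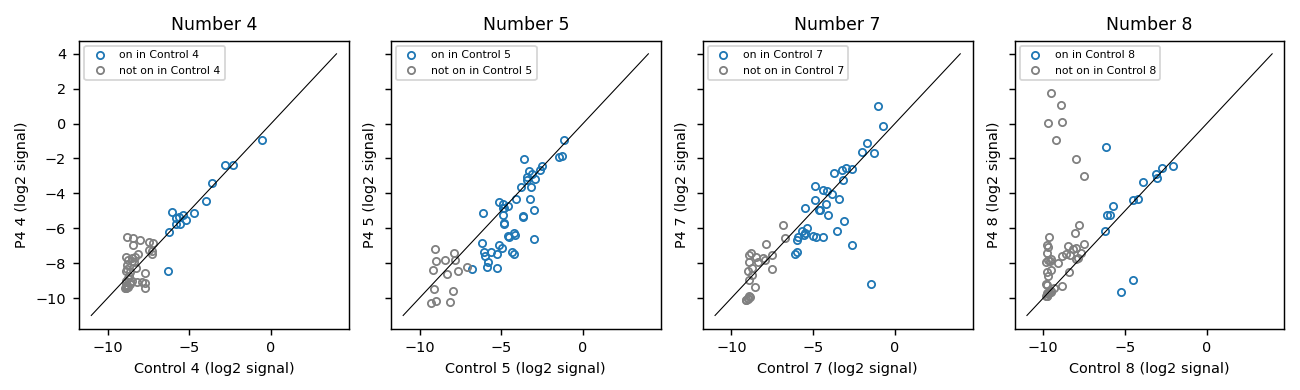
Log2 signal relative to the array's 75th percentile of the 59 members with a gap over 2, in the P4 sample (vertical axis) against the Control sample of the same number (horizontal axis), one panel per number, with the diagonal as a line and colour for the call in that Control. Most points lie near the diagonal, and the largest distance from it, 11.24 log2 units, is in the panel of number 8.

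Number 5 had the fewest of the 59 members on the same side, 44, but differences over 5 log2 units were most frequent in number 8. There, 16 members were over 5 log2 units higher in P4 8 than in Control 8, and 1 was as far lower. The 16 were 8% of the members, against 21 of the 1272 qualifying probes, members included, and 74 probes or 0.487% of all. In numbers 4, 5 and 7, no member was that much higher and 1, 2 and 3 were that much lower. The members were chosen for wide Control ranges, and Control 8 was the lowest Control in 88 of them. The part of that choice in the excess was not tested. Of the 74 probes, 31 were on in all 6 Control arrays, against 11950 of all 15208 probes. Differences of this size between these 2 arrays were thus not confined to partly detected transcripts. The 16 had a median of -0.93 in P4 8, from -2.43 to 3.39, and of -8.83 in Control 8, from -9.80 to -7.01. The difference had a median of 8.08 and reached 11.24.

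P4 8 was the brightest of the 10 samples for all 16 of these members. On the other P4 arrays, 4 were on in number 4, 10 in number 5 and 15 in number 7. Control 7 had all 16 on and Control 10 had 15, against 5 in Control 2, 1 in Control 4, 7 in Control 5 and 3 in Control 8. They include the 7 members of the largest linked group and the 3 members of the group with UF_Ppr_AF_105424. UF_Ppr_AF_108807, the brightest of them, had -9.29, -7.86, -5.99 and 3.39 in P4 samples 4, 5, 7 and 8, against -7.58, -7.42, -6.16, -0.72, -7.17 and -8.17 in Control samples 2, 4, 5, 7, 8 and 10. Its unscaled signal was 33039 units in P4 8, against 27.3 units in Control 8. Its level in the other 3 P4 samples was -5.99 or lower. An exception among the 16 was UF_Ppr_AF_118969, at 0.10 in P4 8 and also bright in P4 5, at -0.91.

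The comparison the design implies, P4 against Control, was fitted with limma across all 15208 probes. At an adjusted p under 0.05, 0 of the 200 members were called, as were 0 of all probes (0%), with 0.99971 as the smallest adjusted p found. Before adjustment, 2 members (1.00%) had p under 0.05, both higher with P4, against 1.41% of all probes (1.03% higher and 0.375% lower). The members were chosen for a large spread between Control samples, which widens their standard errors, so nothing is read from this share. Their median SE was 0.96 log2 units against 0.35 for all probes, and their median 95% interval reached 2.11 units to either side of the estimate against 0.77. These intervals are not adjusted for the number of probes, so they do not give the size of change that could be called. UF_Ppr_AF_112433, at a difference of 2.76, had an adjusted p of 0.99971 (limma).

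In direction the members were evenly split, with 101 higher and 99 lower with P4 and a median difference of 0.0086, against 0.043 for all probes. With the sample number as a block, which removes the differences between numbers, the members' median SE was 0.53. Then 14 members (7%) had an unadjusted p under 0.05, 6 higher and 8 lower, against 2.45% of all probes. At an adjusted p under 0.05 there were 0 members (lowest 0.982). This fit rests on the 4 numbers found in both groups, since a Control without a P4 sample of its number adds nothing to the difference. The Control values that chose the members enter this fit too, so nothing is read from its share either.

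Of the members higher with P4, the smallest unadjusted p belonged to UF_Ppr_AF_117206. Its values were -6.15, -5.85, -5.68 and -5.78 in P4 samples 4, 5, 7 and 8, against -9.48, -7.55, -7.44, -6.52, -5.66 and -10.29 in Control samples 2, 4, 5, 7, 8 and 10. The difference was 1.96 ± 0.78 (SE; 95% interval 0.25 to 3.68; unadjusted p = 0.029, adjusted p = 0.99971, limma). The 4 P4 values lay above 5 of the 6 Control values, and Control 8 was the highest of all. The difference was 0.93 with the sample number as a block and 1.19 with slide as a fixed block. With normexp on the spot median it was -0.42, where the median of all probes was -0.41.

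UF_Ppr_AF_112433 came next, with -5.25, -5.25, -2.84 and -1.35 in P4 samples and -9.48, -5.38, -4.86, -3.75, -6.17 and -8.93 in Control samples. The difference was 2.76 ± 1.19 (SE; unadjusted p = 0.041, adjusted p = 0.99971, limma), and the groups overlapped. It was 1.37 with the sample number as a block and 0.92 with normexp on the spot median. Each P4 sample of numbers 4, 7 and 8 was above its Control, and Controls 2 and 10, without a P4 counterpart, were the dimmest.

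Of the members lower with P4, UF_Ppr_AF_110535 had -8.47, -5.96, -8.39 and -7.26 in P4 samples 4, 5, 7 and 8, against -2.02, -7.33, -2.01, -7.93, -6.21 and -5.58 in Control samples 2, 4, 5, 7, 8 and 10. The difference was -2.34 ± 1.20 (SE; unadjusted p = 0.076, adjusted p = 0.99971, limma). All P4 values lay below the bright Controls, 2 and 5, and within the range of the other Controls or under it. For UF_Ppr_AM_119729 the values were -9.27, -8.79, -10.03 and -9.63 in P4 samples and -5.51, -3.31, -7.38, -8.92, -9.73 and -9.44 in Control samples. Number 4 was bright in Control and dim in P4. No P4 array called it well above background, so the size of a difference is not given (unadjusted p = 0.095, adjusted p = 0.99971, limma).

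What the members share beyond their signal could be read only from the probe names and positions. A sequence record named 36.5% of the members, 39.5% of the qualifying probes and 21.8% of all probes. An assembly contig named 63%, 60.4% and 78.0%. Both shares of the members were closer to those of the qualifying probes than to those of all probes. The left side of the array held 50.5% of the members and 49.98% of all probes, and the upper side held 50.5% and 50.02%.

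For 24 members the array held another probe to the same record, and 16 of those other probes were on in all 6 Control arrays and 3 in none. Of all 15208 probes, 11950 were on in all 6 Control arrays and 673 in none. The other probes had a median Control range of 2.01, against 5.13 for the members they belong with and 1.59 for all probes. The members were chosen for wide Control ranges, so the contrast with them follows from the choice. Their correlation with the member over the 6 Controls ranged from -0.716 to 0.844 with a median of 0.413. The other probes on in all 6 Controls or in none differed from their member in detection, but nothing is read from how many did.

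For 21 members the array held other contigs of the same assembly cluster, in 35 pairs. There 24 of the 35 partners were on in all 6 Controls, as were 11950 of all 15208 probes, so nothing is read from that count. The correlation ranged from -0.775 to 0.968 with a median of 0.199. The pair at 0.968 was UF_Ppr_AF_111543 and UF_Ppr_AF_109107, both members. UF_Ppr_AF_111543 had -9.24, -6.42, -6.42 and -1.97 in P4 samples 4, 5, 7 and 8, against -9.52, -8.62, -7.14, -5.83, -9.45 and -5.11 in Control samples 2, 4, 5, 7, 8 and 10. UF_Ppr_AF_109107 had -9.05, -5.46, -5.08 and -2.07 in P4 samples and -8.29, -8.56, -6.52, -5.00, -8.03 and -4.29 in Control samples. Both were brightest in P4 8 and, of the Controls, in 7 and 10.

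One record was represented by a pair of members, UF_Ppr_AM_119767 and UF_Ppr_AF_114172. UF_Ppr_AM_119767 had -6.35, -7.88, -5.18 and -7.21 in P4 samples 4, 5, 7 and 8, against -5.96, -6.03, -8.22, -4.02, -9.04 and -7.26 in Control samples 2, 4, 5, 7, 8 and 10. UF_Ppr_AF_114172 had -6.06, -6.92, -4.35 and -5.21 in P4 samples and -3.46, -5.46, -6.71, -5.11, -6.27 and -7.93 in Control samples. P4 7 was the brightest P4 sample for both, but the brightest Control was number 7 for UF_Ppr_AM_119767 and number 2 for UF_Ppr_AF_114172.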

How the data were processed

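The data were 10 one-colour arrays, 4 P4 and 6 Control. Each file deposited by the authors gave a background-subtracted processed signal per spot as a linear intensity, from Agilent Feature Extraction 10.7.1.1 per the file headers, with flags for detection, saturation and uniformity. The authors' value table, which the authors deposited on a log2 scale with a normalisation not given in the sources used here, served as an alternative.

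Control spots were left out, and log2 of the signal minus the array's 75th percentile was taken. Each remaining probe had a single spot on an array, so no spots were averaged. The members and lists were chosen with earlier results of these data known. Limits chosen after seeing the values were the gap over 2 (1, 2 and 3 were tried), the correlation of 0.95 and the difference of 5 log2 units.

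P4 was compared with Control by lmFit and eBayes (limma 3.58.1, R 4.3.3), two-sided, on all 15208 probes without a filter, with Benjamini-Hochberg adjustment; 183 members were on in at least 4 of 10 arrays. The fit was tested on simulated data. The precision is limited by the number of arrays.

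Same-numbered samples deviated together from their group means over all probes (r = 0.545, 0.355, 0.367 and 0.297 for numbers 4, 5, 7 and 8, against at most 0.206 for other pairs), so the numbers were taken to pair the samples, from the data and not the labels.

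Members named in the text are the 2 of largest range in each of the 6 commonest Control sets, the ranks around the threshold, the 2 with the smallest p in each direction, the 2 of largest range on in 0 or in all P4 arrays, and members sharing a record or cluster; others were chosen after their values were seen. The 0 gene lists tested reflect that probes have no gene names.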

Additional observations from a re-analysis of the deposited data

Results flagged for a closer look

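In 58 tested combinations of a group and a measure, 4 had 1 sample far from the others of its group by Dixon's criterion, where about 1 in 20 would be reached by chance. In P4 4 the 75th percentile signal was 1882 units, below the other P4 arrays. UF_Ppr_AF_109596 stood at -5.27 and UF_Ppr_AF_106174 at -3.61 in P4 5, above the other P4 samples, and Control 5 was the highest Control for both. UF_Ppr_AF_118911 stood at -8.90 in P4 5, below the other P4 samples. Over all 200 members, 18 had such a sample among the P4 samples and 11 among the Control samples. The members were chosen on their Control values, and the named ones also by range or p. The rate of 1 in 20 need not hold for them, so nothing is read from these counts.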

How the results depend on the processing

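No member and no probe passed an adjusted p of 0.05 under any of the 21 alternatives run for that count, and the lowest adjusted p, within slide 1, was 0.711. At an unadjusted p under 0.05 the 2 members became 14 with the sample number as a replicate block, 8 with slide as a fixed block, 1 with normexp background correction, 52 within slide 1 (1 Control array) and 10 within slide 3. Leaving out 1 array gave 0 to 8. The count was 0 without P4 7, P4 8 or Control 2, 8 without Control 5, 5 without Control 8 and 4 without Control 7. Over all probes, 214 passed that limit in the main fit, 373 with the number block and 503 with slide as a fixed block. The all-probe count was 77 with normexp, 362 within slide 3 and 128 to 418 with 1 array left out. The members were chosen on their Control values, so nothing is read from their counts. Within slide 1, 1 Control array gives no spread among Controls, so its count is not a result about the members. Differences of single members were recomputed only for the 4 of smallest p, and 1 changed sign, UF_Ppr_AF_117206 at -0.42 with normexp, a setting that put the median of all probes at -0.41 and also replaced the processed signal by the spot median. The spot mean signal was not in the files used, so normexp was run on the spot median, an alternative chosen after seeing the data, as were the runs within a slide and the gap sizes. The share of members on in at least 1 P4 array (97.5%) was 99.5% with the less strict detection flag and 92 to 96.5% with 1 P4 array left out, lowest without P4 5. The share on in all 4 (24%) was 51% with that flag and 45.4% for all qualifying probes. The commonest Control set (10% of members) held 11 to 17.5% with 1 Control array left out, where sets merge by construction, with 17.5% without Control 7 and 16% without Control 10. The same-number excess of 23.0 points, which is not a test because the Controls of a member differ by construction, was 13.6 with the less strict detection flag. It was also 13.6 for all qualifying probes. It was 17.1 to 28.0 with 1 array left out, lowest without P4 5, and could not change without Control 2 or 10. The same-side share of 84.7% was 78.9% for gaps over 1, 88.0% for gaps over 3 and 80.8 to 88.1% with 1 P4 array left out. With 4 and 6 arrays and floor values in many members, levels near background have no order.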
